A study of Mus musculus with 12 samples.

Results

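The 10 genes Tnfrsf11a, Traf6, Nfatc1, Mitf, Spi1, Oscar, Trem2, Tyrobp, Fcer1g and Prdm1 encode parts of the RANK pathway and of its costimulatory arm. They were picked by gene symbol, from a pathway chosen with earlier results of these data known, and all 10 were found among the 46517 genes of the osteoclast count table. They were followed in osteoclasts of control and Prmt5 cKO mice, and beside them in sorted periosteal stem cells (PSCs). The study asks what loss of Prmt5, an arginine methyltransferase, does in cells that express the Cre recombinase from the Ctsk promoter, which is active in osteoclasts and in PSCs.

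RANKL binds its receptor RANK on cells of the monocyte lineage, and RANK recruits the adapter TRAF6, which passes the signal to NF-κB and to MAP kinases. A costimulatory signal comes from surface receptors such as OSCAR and TREM2, which have short tails and borrow the ITAM motifs of the adapters FcRγ (Fcer1g) and DAP12 (Tyrobp). The ITAMs recruit the kinase Syk and raise calcium, and both arms meet at NFATc1, the transcription factor that switches on the osteoclast programme together with PU.1 (Spi1) and MITF.

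The osteoclasts were grown from bone marrow of C57BL/6 mice aged 11 weeks, with M-CSF for 2 days and then with M-CSF and RANKL, and were collected 72 h after RANKL was added. There were 3 libraries labelled control and 3 from Prmt5 flox/Δ Ctsk-Cre mice (cKO). The sources used here give neither the alleles of the osteoclast controls nor whether they carried Cre. They do not give the number of mice behind the osteoclast libraries either, so those p-values measure the spread between libraries. The PSCs came from mice of 3 to 6 weeks in 3 libraries per group, from 3 mice per group by the study's account. They were sorted as EGFP+ cells with CD51 and CD200 and without CD45, Ter119, CD31, CD90 and CD105, among other markers. The mice labelled cKO were Prmt5 flox/Δ and their controls Prmt5 flox/+, and both groups carried Ctsk-Cre and the reporter CAG-CAT-EGFP. Ctsk is switched on as osteoclasts form, and when this Cre acted in the cultures was not measured. The Δ allele is a deleted copy that all cells of the cKO mice carry, so only the floxed copy depended on Cre. The part of each copy in the Prmt5 levels was not tested.

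Prmt5 itself was at 58.5, 71.7 and 67.6 CPM (reads scaled to library size with TMM) in control osteoclast libraries 1 to 3 and at 28.8, 37.8 and 35.3 in cKO libraries 1 to 3, and the groups did not overlap. Its log2 fold change, cKO over control, was -1.01 (SE 0.16, adjusted p = 0.0349, quasi-likelihood test of edgeR with Benjamini-Hochberg adjustment). Total counts ran from 2513440 to 2805824 in the controls and were 3608940, 1234919 and 984885 in the cKO libraries. Control 3 stood apart: it held 1506 reads of Xist, a transcript of female cells, against 0 to 1 in the other libraries. Of the Y-linked gene Ddx3y it held 11 reads, against 56 to 234. By these genes control 3 was mostly female and the other 5 libraries, every cKO library among them, were male. Sex and genotype thus cannot be fully told apart with all 6 libraries. In control 3 the summed CPM of 14 NFATc1 target genes was 22650, against 27420 to 35160 in the other 5 libraries. That of 9 stromal markers was 89.1, against 131.9 to 471.1. Each member's difference is therefore given with and without control 3, and without it Prmt5 was 0.99 lower on the log2 scale with an adjusted p of 0.116. Osteoclast genes were abundant in every library, with Mmp9 at 7694 to 15200 CPM and Acp5 at 4415 to 8020 CPM. The summed CPM of 12 macrophage markers was 9836 in control 3 and 8658 to 9418 in the others, and that of 9 neutrophil markers 528 to 748 over the 6 libraries. B cell markers summed to 13.4 to 29.9 CPM and T cell markers to 6.37 to 14.4 CPM. Of these Ighm (10 to 59 reads), Cd79b (5 to 25), Cd4 (11 to 33) and Trac (1 to 7) were found in every library. Ms4a1, Vpreb1 and Cd3g were at 0 in all 6. In such bulk libraries fewer cells of a type and less RNA per cell cannot be told apart.

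The stretches just upstream of Oscar and Trem2 are shown because they held the most matches to letters bound by other members. This ranking covers the 7 members with a matched window. Both are 250 bases that end before the start site, from RefSeq on GRCm38.p6, written 5′ to 3′ on the strand of the gene. Capitals mark matches on either strand to GAGGAA (bound by PU.1), GGAAA (the core bound by NFAT factors) and the E-box CATGTG or CACGTG (bound by MITF), and adjoining capitals can hold overlapping matches.
Oscar, chr7:3616158-3616407, minus strand: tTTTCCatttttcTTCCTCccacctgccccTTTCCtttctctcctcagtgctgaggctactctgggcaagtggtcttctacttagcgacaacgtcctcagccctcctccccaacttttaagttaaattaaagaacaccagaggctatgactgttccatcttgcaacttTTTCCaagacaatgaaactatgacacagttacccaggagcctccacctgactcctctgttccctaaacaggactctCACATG
Trem2, chr17:48346151-48346400, plus strand: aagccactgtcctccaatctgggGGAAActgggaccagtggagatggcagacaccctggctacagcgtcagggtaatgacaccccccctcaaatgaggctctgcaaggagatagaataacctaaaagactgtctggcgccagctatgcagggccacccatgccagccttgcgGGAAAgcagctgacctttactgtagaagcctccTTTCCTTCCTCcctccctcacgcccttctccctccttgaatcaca
The Oscar stretch held 1 PU.1 match, beginning at position -237 counted back from the start site, 3 NFAT matches and 1 E-box at -6. The Trem2 stretch held 1 PU.1 match at -40 and 3 NFAT matches. No match of these kinds was in the Tnfrsf11a window. RefSeq windows were matched for 7 of the 10 members. Among 32851 RefSeq windows of the same length, 23.3% held at least 1 PU.1 match, 55.6% an NFAT match and 17.6% an E-box. The AP-1 letters TGAGTCA or TGACTCA were in 4.46% of them and in no window of the 7 members. The share of windows with as many as 3 NFAT matches was not counted. Such matches are thus common apart from AP-1, and they describe letters only, not binding. The Oscar gene lies at chromosome 7, 3609813 to 3616157, and Trem2 at chromosome 17, 48346401 to 48354147, both on GRCm38.

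All 10 members were well covered, with 120 to 3690 reads per gene and library. None passed the test between control and cKO osteoclasts, at an adjusted p under 0.05, where 4 of the 10724 genes tested (0.0373%) did. None had an unadjusted p under 0.05 either, against 4.76% of genes tested, and the control and cKO values overlapped for all 10, whereas they did not overlap for 10.6% of genes tested (cKO higher for 5.03%, lower for 5.53%). The members' median difference was 0.04 on the log2 scale, beside 0.0024 over all genes tested. Of the 10, 7 had a difference above 0 and 3 below it. The 95% intervals of the 10 differences together ran from 0.799-fold to 1.55-fold, so a change of 2-fold lay outside each of them, although smaller changes did not. DESeq2 also called none of the 10.

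**Figure D1:**
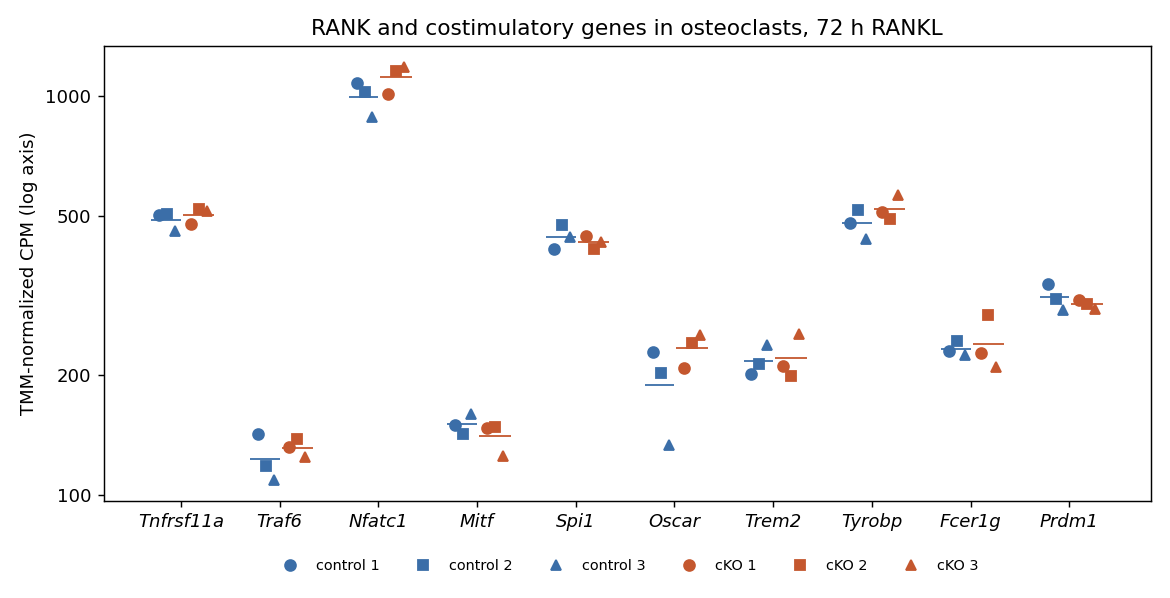
TMM-normalized CPM (log axis) of the 10 genes in each osteoclast library, blue for control and orange for cKO, with circles, squares and triangles for libraries 1, 2 and 3 and lines for group means. The control and cKO points overlap for every gene, and the blue triangle of Oscar, control 3, lies below the other 5.

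Tnfrsf11a encodes RANK, the receptor for RANKL. It was at 503.1, 507.0 and 459.0 CPM in controls 1 to 3 and at 478.7, 520.7 and 515.2 CPM in cKO 1 to 3. These 6 values lay within 1.13-fold of each other, the narrowest range of the 10 members, with control 3 lowest. The difference was 0.04 on the log2 scale (SE 0.10, 95% interval -0.18 to 0.26, adjusted p = 0.976, edgeR), and -0.0042 without control 3.

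Traf6 encodes the adapter that binds RANK and acts as a ubiquitin ligase. It was at 142.6, 118.6 and 109.3 CPM in the controls and at 132.1, 138.6 and 124.6 CPM in the cKO libraries. The lowest and the highest value were both controls, and the 3 cKO values lay between them. The difference was 0.10 (SE 0.12, 95% interval -0.16 to 0.35, adjusted p = 0.959, edgeR), and 0.02 without control 3.

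Among the costimulatory receptors, Oscar, a collagen receptor that pairs with FcRγ, had the largest difference of the 10 members. Its values were 228.7, 202.7 and 134.1 CPM in the controls and 208.9, 241.0 and 252.4 CPM in the cKO libraries. Control 1 lay within the cKO range, control 2 just below it and control 3 far below. The difference was 0.30 on the log2 scale (SE 0.16, 95% interval -0.03 to 0.63, unadjusted p = 0.0722, adjusted p = 0.950, edgeR). Without control 3 it was 0.10 (95% interval -0.16 to 0.37, adjusted p = 1.0), so 1 library decided most of its size.

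Trem2, the lipid-binding receptor that pairs with DAP12, was at 201.1, 213.9 and 237.5 CPM in the controls and at 211.4, 199.0 and 253.4 CPM in the cKO libraries. The lowest and the highest value were both cKO libraries. The difference was 0.01 (SE 0.12, 95% interval -0.23 to 0.26, adjusted p = 0.995, edgeR), and 0.08 without control 3. Control 3, lowest for Oscar, was the highest control for Trem2.

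The ITAM adapters overlapped between the groups as well. Tyrobp (DAP12) was at 482.2, 519.7 and 437.4 CPM in the controls and at 511.0, 492.1 and 565.0 CPM in the cKO libraries, with cKO 3 highest and control 3 lowest. Its difference was 0.12 (SE 0.11, 95% interval -0.11 to 0.35, adjusted p = 0.950, edgeR), and 0.06 without control 3. Fcer1g (FcRγ) was at 229.5, 243.4 and 224.3 CPM in the controls and at 227.6, 283.0 and 209.8 CPM in the cKO libraries, whose values spread to both sides of the controls. Its difference was 0.05 (SE 0.12, 95% interval -0.20 to 0.29, adjusted p = 0.976, edgeR), and 0.02 without control 3.

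Nfatc1, the factor on which both arms meet, was at 1078, 1021 and 887.7 CPM in the controls and at 1012, 1153 and 1185 CPM in the cKO libraries. Here too control 3 was the lowest library, and cKO 1 lay below controls 1 and 2. The difference was 0.16 (SE 0.12, 95% interval -0.08 to 0.41, adjusted p = 0.950, edgeR) and 0.09 without control 3. An annotated antisense gene, AC123818.1, overlaps Nfatc1 on the other strand, and since the use of strand in the counting is not given, reads of the pair cannot be told apart.

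Spi1 encodes PU.1, the factor of myeloid identity that also drives RANK expression. It was at 413.8, 474.8 and 444.7 CPM in the controls and at 445.5, 413.2 and 431.1 CPM in the cKO libraries, again with overlap, and the difference was -0.05 (SE 0.10, 95% interval -0.27 to 0.17, adjusted p = 0.974, edgeR), the same to 2 decimals without control 3. Mitf, a partner of PU.1 at osteoclast genes, was at 149.8, 142.2 and 160.2 CPM in the controls and at 147.5, 148.6 and 125.7 CPM in the cKO libraries, where cKO 3 was lowest. Its difference was -0.09 (SE 0.11, 95% interval -0.32 to 0.15, adjusted p = 0.959, edgeR), and -0.04 without control 3. A processed pseudogene, Gm15531, lies on the opposite strand within Mitf. Prdm1 encodes Blimp1, a repressor that lifts the brake on osteoclast formation by silencing genes such as Bcl6 and Irf8. It was at 337.7, 311.2 and 291.8 CPM in the controls and at 308.4, 301.5 and 292.9 CPM in the cKO libraries. All 3 cKO values lay within the range of the controls, and the difference was -0.06 (SE 0.10, 95% interval -0.28 to 0.16, adjusted p = 0.969, edgeR), and -0.11 without control 3.

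**Figure D2:**
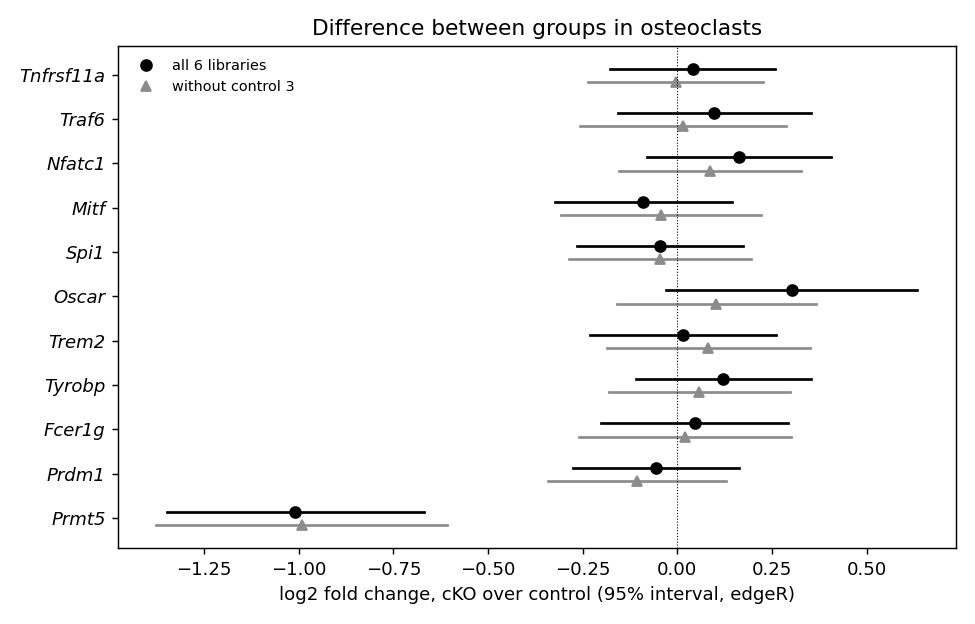
Log2 fold change of cKO over control osteoclasts with its 95% interval from edgeR, for each of the 10 genes and for Prmt5, with all 6 libraries (black circles) and without control 3 (grey triangles). All 10 intervals of the pathway genes cross 0 in both fits, Oscar moves from 0.30 to 0.10, and Prmt5 lies at -1.01 and -0.99.

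Control 3 was the lowest of the 3 controls for 7 of the 10 members and the highest for 2. Leaving it out brought the members' median from 0.04 to 0.02. The ratio of the highest to the lowest library had a median of 1.28 over the members and of 1.29 over the 1725 tested genes with a mean of at least 127.6 CPM, the level of the lowest member, so the members were about as steady as other genes of their abundance.

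Levels were compared between members per kilobase of exon. In the control osteoclasts Tyrobp was highest at 719 CPM per kilobase, followed by Fcer1g at 266, Spi1 at 165, Nfatc1 at 134, Oscar at 102, Tnfrsf11a at 81.8, Prdm1 at 57.1, Trem2 at 44.0, Mitf at 24.3 and Traf6 at 15.7. The ITAM adapters were thus above both receptors that borrow them, and Traf6 was lowest. The ranges of the 3 control libraries overlapped for the neighbours Nfatc1 and Oscar and for Oscar and Tnfrsf11a, and for no other neighbours. The place of Trem2 depended on the length used: its exons in the table sum to 4946 bases, its principal transcript to 1088, and with transcript lengths it moved from rank 8 to rank 5.

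**Figure D3:**
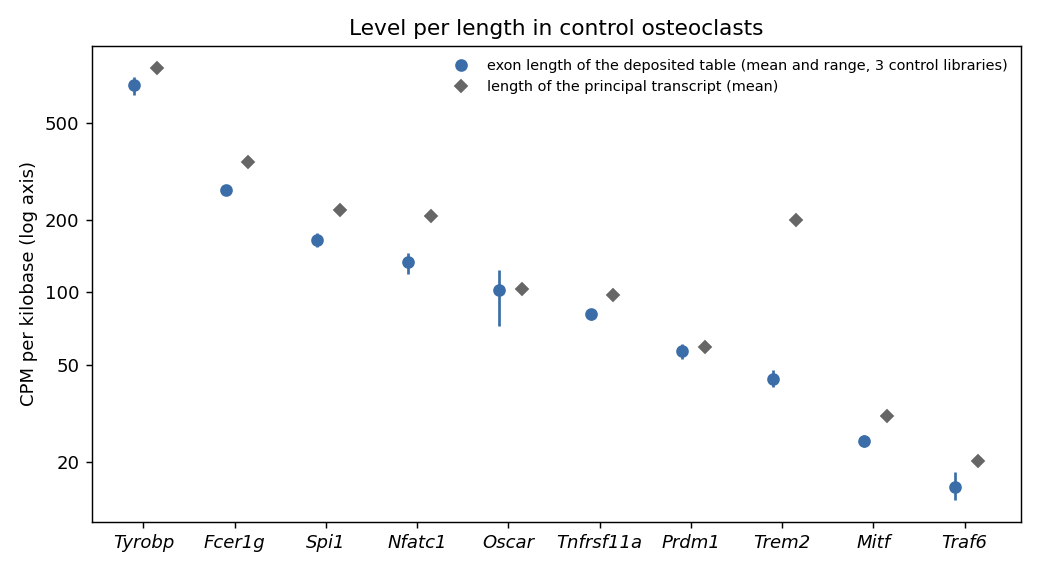
CPM per kilobase (log axis) of the 10 genes in the 3 control osteoclast libraries, in order of level, as mean and range with the exon length of the table (blue circles) and as mean with the length of the principal transcript (grey diamonds). Tyrobp is highest at 719 and Traf6 lowest at 15.7, and only Trem2 moves far with the length used.

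By Pearson's r of log2 CPM over the 6 osteoclast libraries, the genes that ran most like Tnfrsf11a were Acad10 (0.994), Pon3 (0.990) and Hyal2 (0.988), and those most like Nfatc1 were Ndst1 (0.997), Fbxo40 (0.995) and Prune (0.995). They were picked as the highest of all tested genes over 6 points that share depth and culture, and describe these libraries only.

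The wider pathway was read from 9 gene lists, and no gene of them passed the test in the osteoclasts. Of 22 RANK adapters and NF-κB genes tested the median difference was -0.0067 (0.04 without control 3), and the most abundant of them were Sqstm1 (392.5 CPM in controls, 428.4 in cKO), Nfkbia (362.6 and 373.2) and Traf1 (254.3 and 248.5). Of 14 MAP kinase and AP-1 genes the median was -0.07 (-0.04 without control 3). Their most abundant member Fosl2 was at 1012 ± 161 CPM in controls and 1072 ± 100.8 in cKO (SD, n = 3), and Fos was at 432.3 ± 89.6 and 364.0 ± 48.96.

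In the costimulatory arm no gene passed either. Of the 13 other ITAM-coupled receptors tested, 2 had an unadjusted p under 0.05 (edgeR), beside 4.76% of all genes tested. The groups did not overlap for 1 with cKO higher and 2 with cKO lower, beside 10.6% of all genes tested. The differences of these 13 receptors had a median of 0.07 (0.08 without control 3) and ran from -1.43 to 0.47. The ends belonged to scarce genes: Sirpb1b, with the lowest value, was at 4.65 to 10.1 CPM in controls and 1.68 to 4.16 CPM in cKO, with an adjusted p of 0.950 (edgeR). The more abundant Cd300lb was at 120.8 ± 13.8 and 99.1 ± 11.8 CPM (SD, n = 3). Among 18 ITAM kinases and adapters the median was 0.08 (0.07 without control 3), with Rac2 at 493.6 ± 62.4 and 573.0 ± 70.3, Syk at 416.8 ± 57.2 and 463.1 ± 36.2 and Src at 361.3 ± 49.7 and 431.3 ± 62.3 CPM (SD, n = 3). Control 3 was the lowest library for all of Rac2, Syk and Src. Of 12 inhibitory receptors and phosphatases, which oppose the ITAMs, the median was 0.05 (0.04 without control 3), and Sirpa, their most abundant, was at 1369 ± 100 and 1504 ± 69.2 CPM (SD, n = 3).

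Downstream, 20 genes of calcium, calcineurin and NFAT had a median of 0.02, 11 partner transcription factors 0.05 and 8 repressors of osteoclast formation 0.02. Without control 3 these medians were 0.01, 0.06 and 0.10. In the last list Rbpj was at 125.3 ± 19.6 CPM in controls and 127.2 ± 3.57 in cKO (SD, n = 3). The 14 NFATc1 target genes had the highest median of these lists with all 6 libraries, 0.20, but 0.10 without control 3, no longer the highest. In that list 4 genes had an unadjusted p under 0.05, beside 4.76% of all genes tested: Ocstamp at 0.52, Mmp9 at 0.37, Car2 at 0.35 and, in the other direction, Ctsk at -0.77. Without control 3 the first 3 of these were at 0.42, 0.21 and 0.25. Mmp9, a matrix protease, was at 11720, 10690 and 7694 CPM in the controls and at 10730, 15200 and 12950 CPM in the cKO libraries. Acp5, the osteoclast phosphatase TRAP, was at 6794, 6357 and 4415 CPM and at 5982, 8020 and 7140 CPM. In both genes control 3 was the lowest library, as it was for Nfatc1 and Oscar.

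Ctsk, which encodes the collagen-degrading protease cathepsin K and whose promoter drives the Cre, was the exception in its list. It was at 9119, 8509 and 5632 CPM in the controls and at 4483, 4644 and 4489 CPM in the cKO libraries, so the groups did not overlap and the 3 cKO values lay close together. The difference was -0.77 (SE 0.16, adjusted p = 0.234, edgeR) and did not pass with all 6 libraries. Without control 3 it was -0.96 and passed, with an adjusted p of 0.00138. Whether the osteoclast controls carried the Cre is not given, so its carriage and loss of Prmt5 cannot be told apart here. In the PSCs, where both groups carried it, the Ctsk difference was -0.07 (adjusted p = 0.749, limma).

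**Figure D4:**
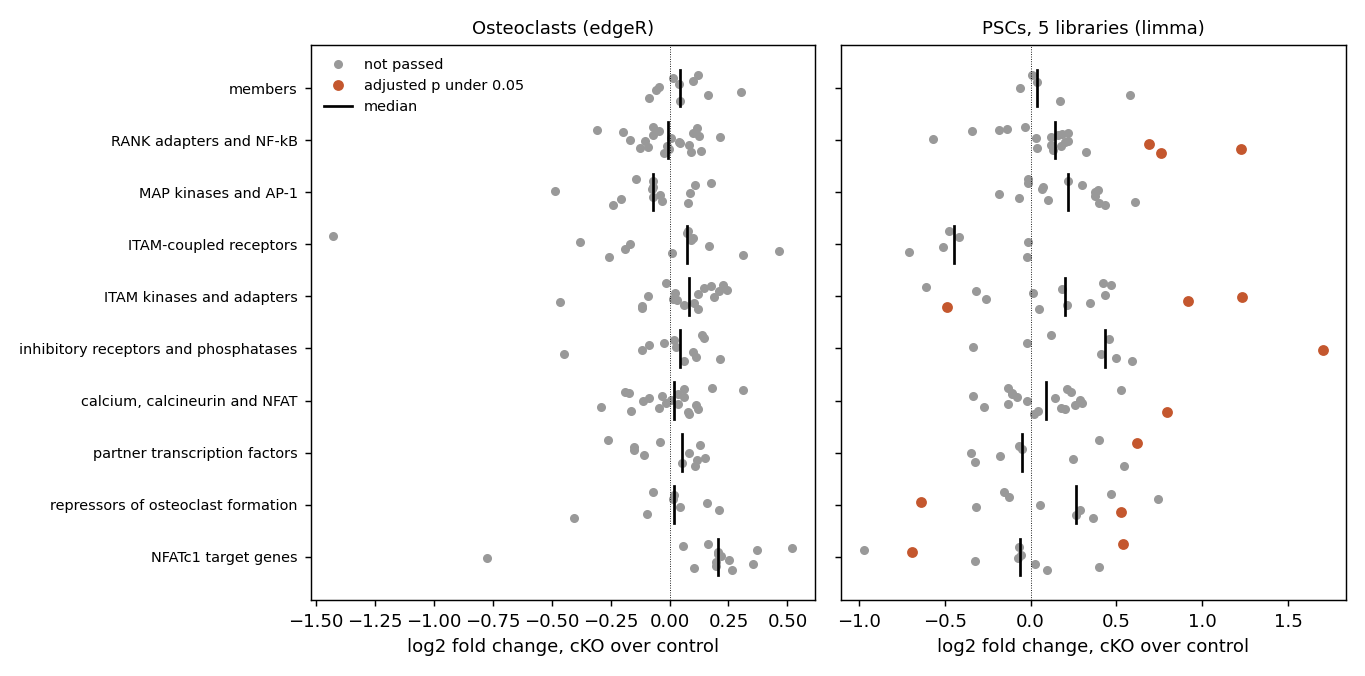
Log2 fold change, cKO over control, of each tested gene by list, in osteoclasts (edgeR, left) and in 5 PSC libraries (limma, right), with a black line at each median and orange points for an adjusted p under 0.05. No point is orange in the osteoclasts, where the NFATc1 targets have the highest list median with all 6 libraries, 0.20 (0.10 without control 3), while single genes such as Ikbkb and Plcg1 are orange in the PSCs.

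In the PSCs the study deposited RPKM, reads scaled to the exon length of a gene and to the mapped reads of a library, for controls 1 and 2 and cKO 1 to 3 in 1 table and for control 3 in another. Across genes, control 3 had an r of 0.842 to 0.860 with the other 5, below the 0.948 to 0.982 found among those, so the 5 were tested with limma on log2(RPKM + 1), and values with control 3 stand beside them. Prmt5 did not separate the PSC groups: the 3 libraries labelled cKO held 8.40, 6.31 and 8.08 RPKM of it, controls 1 and 2 held 6.29 and 8.31, and control 3 held 4.32. PSC directions are therefore given for the libraries as labelled. The groups did separate by Postn, a marker of these cells, which the 3 controls held at 488.0, 521.0 and 736.8 RPKM and the libraries labelled cKO at 187.9, 239.7 and 195.6 (difference -1.28, adjusted p = 0.00333, limma). The intron share of Postn was also apart, at 0.347%, 0.472% and 0.983% in controls 1 to 3 and 2.12%, 2.06% and 1.99% in the libraries labelled cKO, with an adjusted p of 0.134 (limma, 5 libraries). Postn was not typical of its list: over 9 PSC markers tested the median difference was -0.07. Of these 1 passed higher and 1, Postn, passed lower, where 10.1% of all genes tested passed. The libraries also differed in genes that mark sex. Ddx3y was at 16.5 and 1.56 RPKM in control libraries 1 and 2, 22.3, 23.9 and 4.71 in the libraries labelled cKO and 0 in control 3. Xist was at 0.034 and 1.72, at 0.024, 0 and 1.13, and at 4.04 RPKM in the same order. Control 2 and the library labelled cKO 3 thus held both genes above 1 RPKM. Whether each library came from a single mouse was not tested. The part of sex in the differences was not tested.

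Of the 10 members, 5 reached the filter of a mean of 1 RPKM over the 5 PSC libraries: Nfatc1, Tyrobp, Fcer1g, Traf6 and Spi1. None passed an adjusted p under 0.05, where 10.1% of the 11045 genes tested did. Their median difference was 0.04, beside 0.14 over all genes tested. With median-of-ratios size factors, which by construction bring the median of all genes close to 0, it was -0.0052 and that of the members -0.10.

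Nfatc1 was the highest of the members in the PSCs and the only one of the 5 whose groups did not overlap, which held for 45.8% of the genes tested and, with the labelled cKO higher, for 35.6%. It was at 36.5 and 34.2 RPKM in control libraries 1 and 2, at 29.6 RPKM in control 3 and at 43.0, 61.0 and 57.0 RPKM in the libraries labelled cKO. Every library labelled cKO thus lay above all 3 controls, as it did for 20.7% of 10774 genes, while 27.3% of these did not overlap in either direction. The difference was 0.58 on the log2(RPKM + 1) scale (SE 0.16, 95% interval 0.21 to 0.94, unadjusted p = 0.00716), and with an adjusted p of 0.0604 (limma) it missed the threshold. It passed only without the library labelled cKO 1, the lowest of its group (0.72, adjusted p = 0.0337), while with all 6 libraries it was 0.66 (adjusted p = 0.113) and with size factors 0.41 (adjusted p = 0.201). The share of its reads in introns came to 23.3% and 20.05% in controls 1 and 2, 20.5%, 16.8% and 18.5% in the libraries labelled cKO and 31.9% in control 3.

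The adapters Tyrobp and Fcer1g and the factor Spi1, all typical of blood cells, were also measured in these CD45- sorted cells. Tyrobp was at 14.4 and 16.8 RPKM in control libraries 1 and 2, 19.4, 10.3 and 19.0 RPKM in the libraries labelled cKO and 12.3 RPKM in control 3, with a difference of 0.0055 (SE 0.25, 95% interval -0.58 to 0.60, adjusted p = 0.992, limma). Fcer1g was at 15.4 and 10.2, at 18.7, 10.9 and 14.1 and, in control 3, at 0.987 RPKM, with a difference of 0.17 (SE 0.24, 95% interval -0.38 to 0.72, adjusted p = 0.678, limma). With control 3 in the fit the Fcer1g difference was 1.09 (adjusted p = 0.469, limma). Both were lowest of the labelled cKO libraries in cKO 2. For 7 pan-leukocyte markers the summed RPKM came to 46.6 and 33.9 (controls 1 and 2), 51.5, 32.0 and 56.4 (labelled cKO) and 13.7 (control 3). Macrophage markers summed to 298 and 192, to 361, 252 and 252, and to 32.8 RPKM in control 3, and neutrophil markers to 2083 and 1299, to 2191, 1951 and 1301, and to 518. Most of the macrophage sum was Lyz2, at 264.5 and 168.5, at 306.7, 231.0 and 216.9, and at 26.8 RPKM in control 3. That sum thus mostly reads 1 gene. The part of such cells in the members' levels was not tested. Spi1 was at 2.09 and 2.58, at 2.02, 2.05 and 2.49, and at 1.44 RPKM, with a difference of -0.06 (SE 0.16, 95% interval -0.43 to 0.30, adjusted p = 0.831, limma).

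**Figure D5:**
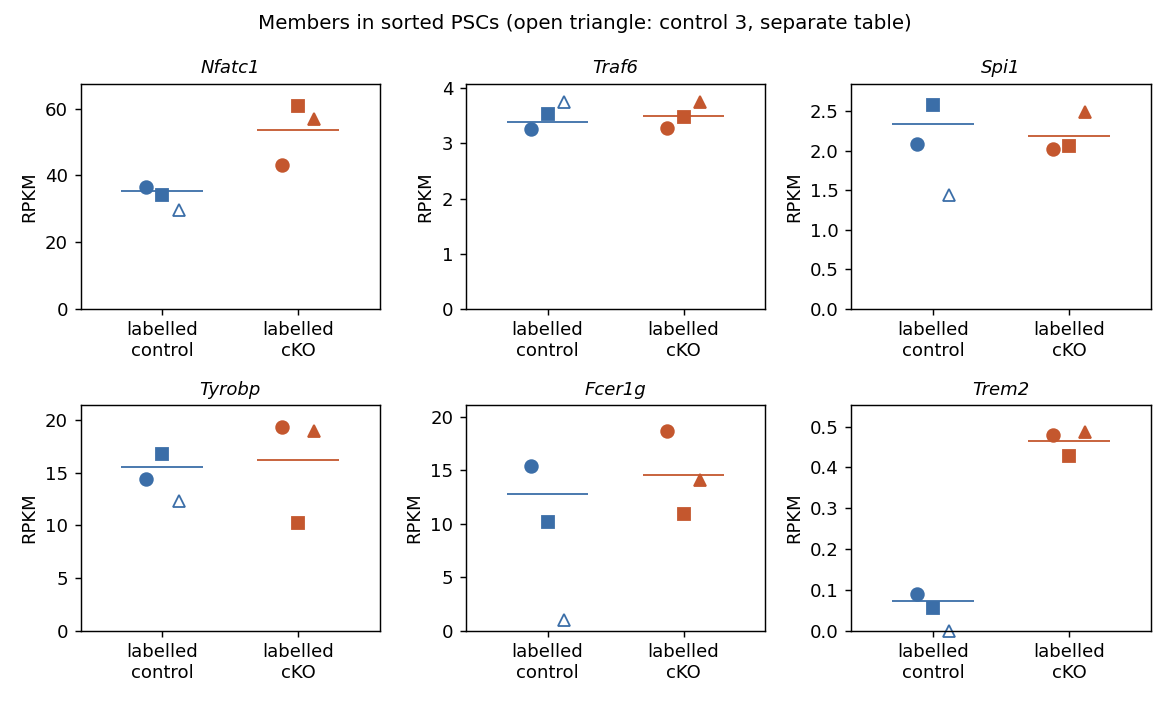
RPKM of 6 of the genes in each PSC library, blue for labelled control and orange for labelled cKO, with lines for the means of controls 1 and 2 and of cKO 1 to 3 and an open triangle for control 3 from the separate table. For Nfatc1 and Trem2 all 3 orange points lie above all 3 blue ones, while for the other 4 they overlap.

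Traf6 was steady in the PSCs, at 3.26 and 3.53 RPKM in control libraries 1 and 2, 3.28, 3.49 and 3.74 RPKM in the libraries labelled cKO and 3.76 RPKM in control 3 (difference 0.04, SE 0.13, 95% interval -0.27 to 0.35, adjusted p = 0.889, limma). Its intron share came to 5.19% and 6.54% in controls 1 and 2 and 9.09%, 9.30% and 11.4% in the libraries labelled cKO, which do not overlap, but 0% in control 3, which stands below both. On the log2 odds scale the difference was 0.78 (SE 0.29, adjusted p = 0.276, limma), and neither Traf6 nor any of the other 4 tested members passed, where 0.0841% of 10697 genes did.

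The other 5 members were below the filter. The receptor genes were near or at the limit of detection. Trem2 was at 0.089 and 0.056 RPKM in control libraries 1 and 2 (5 and 3 exon reads), 0 in control 3 and 0.479, 0.427 and 0.487 RPKM in the libraries labelled cKO (33, 21 and 28 reads). All 3 libraries labelled cKO stood above all controls, with an adjusted p of 0.0875 in limma without the filter and of 0.0546 in edgeR on the reads recovered from the RPKM steps, a test chosen after seeing the data. Tnfrsf11a had 1 and 0 exon reads in controls 1 and 2, 31, 2 and 21 in the libraries labelled cKO and 49 in control 3, so its groups overlapped once control 3 was counted. Oscar had no exon reads in controls 1 and 2 and at most 2 in the libraries labelled cKO, but was at 0.62 RPKM in control 3. Prdm1 was at 0.81 RPKM in control 3 and at 0.17 RPKM or less in the other 5. Mitf, the most abundant of these, was at 0.44 and 1.11 RPKM in control libraries 1 and 2, 0.59, 0.58 and 0.71 RPKM in the libraries labelled cKO and 0.72 RPKM in control 3. Between 57.1% and 82.7% of its reads lay in introns.

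Around the members, several signalling genes passed the test in the PSCs with 5 libraries. Of 20 RANK adapters and NF-κB genes tested, 3 rose in the libraries labelled cKO and none fell: Ikbkb (difference 1.22, adjusted p = 0.00221) and Chuk (0.76, adjusted p = 0.0246), which encode the IκB kinases, and the NF-κB subunit Nfkb1 (0.69, adjusted p = 0.0384, all limma). Ikbkb was at 3.16 and 3.57 RPKM in control libraries 1 and 2, 9.72, 8.74 and 9.13 RPKM in the libraries labelled cKO and 6.14 RPKM in control 3, between the groups. Of 14 ITAM kinases and adapters, Plcg1 (1.23, adjusted p = 0.00353) and Pik3cd (0.92, adjusted p = 0.0169) rose and Fyn fell by 0.49 (adjusted p = 0.0349, all limma). Plcg1, the phospholipase that releases calcium stores, was at 11.6 and 12.4 RPKM in control libraries 1 and 2, 8.14 RPKM in control 3 and 34.6, 27.7 and 26.5 RPKM in the libraries labelled cKO. The calcium-dependent kinase Camk1 rose by 0.79 (adjusted p = 0.00636), 1 of 20 calcium, calcineurin and NFAT genes tested, and none of that list fell.

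Elsewhere Pecam1, the endothelial CD31 used to exclude cells in the sort, rose by 1.70 (adjusted p = 0.0107), the MITF relative Tfe3 by 0.62 (adjusted p = 0.0381), the repressor Id1 by 0.53 (adjusted p = 0.0381) and the proton pump subunit Tcirg1 by 0.54 (adjusted p = 0.0442), while Mmp14 fell by 0.69 (adjusted p = 0.00904, all limma). None of 15 MAP kinase and AP-1 genes and none of 6 ITAM-coupled receptors passed. With control 3 in the fit, of these genes only Plcg1 (1.40, adjusted p = 0.0237) and Pecam1 (1.83, adjusted p = 0.0312) still passed. Of all genes tested with 5 libraries 10.1% passed in either direction and 8.46% passed and rose, so few fell. These shares are the background for these counts. Markers of cell types also moved between the same libraries. All 4 B cell markers tested were above 0 (median 0.71, none passed), with a summed RPKM of 13.6 and 19.0 in controls 1 and 2, 36.1, 17.1 and 45.7 in the libraries labelled cKO and 18.4 in control 3. Of 9 stromal markers 3 passed, all lower (Postn, Lum and Col3a1), with a median of -0.72 over the list. Postn is also on the list of PSC markers, so the stromal list does not mark cells apart from PSCs. Their summed RPKM was 24990 and 21620 in controls 1 and 2, 13860, 14140 and 14070 in the libraries labelled cKO and 18180 in control 3. The control 3 sum joins opposite shifts. Lum was at 3486 RPKM there against 1206 and 1202 in controls 1 and 2, and Col1a1 at 3104 against 12920 and 10120. The part of these cell types in the differences was not tested.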

How the data were processed

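RNA (Maxwell simplyRNA kit, SMART-seq v4) was sequenced on Ion Torrent Proton. For osteoclasts the authors deposited unscaled counts, beside p-values and fold changes of their own test, which were not used. For PSCs the deposited values are RPKM and the part of each gene's reads that lies in introns. Per the submitters' processing notes the tools were kallisto 0.46.0 with GRCm38, FastQC 0.1.1.8 and Trim Galore 0.6.4. The sources used here do not give the program behind the tables or its use of strand. For the PSCs, control 3 has its own table, matched by name.

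Osteoclast counts were scaled with TMM, filtered with filterByExpr and compared by quasi-likelihood in edgeR 4.0.16 (R 4.3.3). PSC genes averaging 1 RPKM or more were tested with limma 3.58.1 (empirical Bayes with trend) on log2(RPKM + 1), a scale that understates the change of low genes. Intron shares were tested as log2 odds with an offset of 0.005. DESeq2 1.42.0, other scalings, filters, pseudocounts and left-out libraries were alternatives. All p-values are two-sided, with Benjamini-Hochberg adjustment over all genes tested. RPKM steps gave whole reads (within 0.02) for 85.6% to 85.8% of detected genes in the 5 libraries of 1 table and for 100% in control 3, and edgeR on these reads called 720 genes, against 1118 with limma.

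The members and gene lists were chosen with earlier results of these data known. The text names the 10 members, Prmt5, genes from the 3 most abundant of each list, every pathway gene that passed except 1 that is not reported here, and the 3 genes most like Tnfrsf11a and Nfatc1. Sirpb1b, Ocstamp, Car2, Xist and Ddx3y were named after their values were seen.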

Additional observations from a re-analysis of the deposited data

How the results depend on the processing

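None of the 10 members was called in osteoclasts under any alternative, the members' median stayed at 0.03 to 0.05 without a library left out and at 0.02 to 0.09 with each left out, and cKO 2 and 3 are the shallowest libraries. The 4 osteoclast genes called overall became 46 without a filter on low counts, 0 with at least 10 reads in every library and 0 to 9 with each library left out (0 without control 2 or cKO 3, 9 without cKO 1). Signs near 0 turned with single libraries left out: Trem2 ran from -0.081 to 0.082, Spi1 from -0.10 to 0.0035, Tnfrsf11a from -0.0042 to 0.080 and Fcer1g from -0.079 to 0.12. Same-numbered libraries did not deviate together (r = -0.07 to 0.07 in osteoclasts and -0.06 to -0.02 in PSCs). With so few libraries, and control 3 of the PSCs in a separate table, this cannot exclude a pairing by number. With the replicate block, 0 osteoclast genes, 1 PSC gene and 0 intron shares were called. In the PSCs Traf6 was then -0.0031, Spi1 0.086 and the intron shares of Spi1 and Tyrobp -0.56 and 0.74. These PSC values were as in the same 6 libraries without the block.

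The 1118 PSC genes called became 248 without a filter, 207 with all 6 libraries, 712 with size factors, 720 with edgeR on recovered reads (chosen after seeing the data) and 324 to 605 with each of the 5 libraries left out. PSC members called were 0, or 1 (Nfatc1) without the library labelled cKO 1. The PSC members' median was -0.10 with size factors, -0.11 on recovered reads and -0.013 to 0.29 with each library left out (0.29 without the library labelled cKO 2). Size factors turned Traf6 to -0.10 and Tyrobp to -0.16, and recovered reads turned them to -0.12 and -0.11. With each library left out, Traf6 ran from -0.0092 to 0.080, Tyrobp from -0.14 to 0.29, Fcer1g from -0.11 to 0.45, Spi1 from -0.17 to 0.044 and Nfatc1 from 0.48 to 0.72. The 9 genes called for the intron share became 2 with an offset of 0.02, 0 with all 6 libraries and 1 to 4 with each library left out, where the shares of Spi1 ran from -0.55 to 0.73 and of Fcer1g from -0.29 to 0.69. The cause of these shifts was not tested.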
